A study of Mus musculus with 6 samples.

Results

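The genes described here are the clustered, replication-dependent histone genes, taken as every row of the expression table whose symbol starts with Hist1h, Hist2h, Hist3h or Hist4h. This gave 64 rows among the 22162 genes of the table, with 61 distinct symbols, because Hist1h2ap, Hist1h4n and Hist1h2br each name 2 rows. The set was chosen after Hist1h4i was seen to be higher in TAM-treated cells in these same libraries, so the differences between TAM and EtOH are given below as a description of its members and no test is attached to them. The libraries come from mouse skin fibroblasts (MSFs), a line isolated from the dorsal skin of a female FASST mouse on the FVB/N strain. FASST cells of both groups carry Col-Cre-ERT2, a tamoxifen-dependent Cre recombinase driven by the pro-alpha 2(I) collagen promoter, and a ROSA26 lox-stop-lox allele that expresses p27Kip1 and GFP once recombined. In 3 samples, labelled TAM and senescent, MSFs received 10 µM tamoxifen for 48 h, and in 3 samples, labelled EtOH and non-senescent, they received the ethanol vehicle. All were kept in 3% oxygen, and TAM is therefore compared together with the recombination it drives, without a TAM-treated sample that lacks the allele. The labels do not say whether samples of a group came from separate cultures, so the spread between them may be technical. The time between TAM and RNA collection was not given in the sources used here.

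Clustered histone genes encode the bulk of the linker histone H1 and of the core histones H2A, H2B, H3 and H4 around which DNA is wound. Their transcription rises in S phase, when new DNA must be packaged. Unlike other mRNAs, their transcripts usually end just after a conserved stem-loop, which is bound by the stem-loop binding protein Slbp and cut with the help of the U7 snRNP, and they carry no poly(A) tail. Some of these genes also give longer transcripts that run past the stem-loop to a poly(A) signal, and such forms are known from differentiated and non-dividing cells. The libraries were made from poly(A) RNA, so tailless histone mRNA was largely outside the measurement. A change in total histone mRNA, in the share of it that carries a tail and in carry-over of tailless RNA cannot be told apart in these libraries. In bulk samples, fewer cells that express a gene and less RNA per cell cannot be told apart either.

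The stem-loop is shown first because it marks where the usual tailless transcript ends. A 16-base pattern with a stem of 6 pairs and a loop of 4 bases was searched in the 200 genomic bases after the stop codon, on the strand of the gene, with GG at its start, CC at its end, T before and A after the loop and T as the third base of the loop. At most 1 unmatched pair was allowed, at the inner positions of the stem. The pattern was found in 58 of the 64 rows (90.6%) and in 97 of 21666 genes with such a window (0.448%), members included. With every pair matched it was found in the same number of rows, 58, and in 67 genes (0.309%). It began between 22 and 59 bases after the stop codon, with a median of 31.5 bases. The capitals below mark the stem-loop and the lower-case letters the 5 bases on each side, all read 5′ to 3′ from mm9 for members with high values or large differences.
Hist1h4i, chr13:22132830-22132855, minus strand: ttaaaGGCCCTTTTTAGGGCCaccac
Hist1h4h, chr13:23623322-23623347, plus strand: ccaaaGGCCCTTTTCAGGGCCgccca
Hist1h2be, chr13:23677395-23677420, minus strand: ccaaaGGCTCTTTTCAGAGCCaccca
Hist1h2bc, chr13:23776511-23776536, plus strand: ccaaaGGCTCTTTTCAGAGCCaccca
Hist1h1c, chr13:23831376-23831401, plus strand: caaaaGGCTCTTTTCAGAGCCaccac
Hist2h3c1, chr3:96051245-96051270, plus strand: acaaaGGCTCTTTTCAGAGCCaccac
Hist2h4, chr3:96066857-96066882, minus strand: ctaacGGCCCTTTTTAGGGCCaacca

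The stem-loop of Hist1h2be, Hist1h2bc, Hist1h1c and Hist2h3c1 was the commonest form and was shared by 34 rows. The form in Hist1h4h occurred in 8 rows and that of Hist1h4i and Hist2h4 in 2. No such pattern lay in this window for Hist2h2bb, Hist2h2be, Hist1h2bp, Hist1h2an and both rows named Hist1h2br. The stop codon used was that of the annotated model with the longest coding sequence. This had 120 residues for Hist2h2bb, 138 for Hist1h2bp and 135 for Hist1h2br, against 126 for Hist2h2be. A stem-loop after another stop codon was not searched for.

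The annotated transcripts differed in how far they run past this point. In mm9 the exons of 17 of the 58 rows with a stem-loop ended at least 100 bases beyond it, and 10 of these 17 passed the filter on low values described below. Of the other 41 rows with a stem-loop, 3 passed. Longer exons collect more reads, so this is a description of which models are counted and not a comparison of levels. The canonical signal AATAAA lay in the last 40 bases of an annotated transcript in 11 of the 64 rows (17.2%), against 13385 of 21666 genes (61.8%). For Hist1h1c the annotated end lay 839 bases past the stem-loop and the first AATAAA 815 bases past it, and for Hist2h3c1 these distances were 1166 and 1145 bases. Hist1h2bc is annotated with 2 exons, and its stem-loop lies in the intron between them, so this model skips the stem-loop. For Hist1h4i the annotated end lay 150 bases past the stem-loop and the first AATAAA 1832 bases past it.

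Histone genes are near copies of each other, which bears on how reads could be assigned. The share of 50-base stretches of a row's exons that occur once in the genome had a median of 52.7% over the 64 rows. It was 59.8% for Hist1h4i, 54.2% for Hist1h4h, 49.2% for Hist1h2bc, 88.1% for Hist1h2be and 91.5% for Hist1h1c. For Hist2h3c1 it was 42.7%, the lowest among the rows that passed the filter described below. In 5 rows (both Hist1h2ap, both Hist1h2br and Hist2h2aa2) it was 0, and 3 of these were listed at 0 in all 6 libraries. How reads that match several places were treated was not given in the sources used here, so values of single members hold with that limit. Some rows also overlap other genes. Trim17, on the same strand, covers 35.6% of the exon bases of Hist3h2a, and Hist2h2aa1 covers 19.0% of those of Hist2h3c1. In 4 rows the symbol of the table differs from that of the mm9 annotation for the same identifier. One row each of Hist1h2ap, Hist1h4n and Hist1h2br is annotated as Hist1h2ao, Hist1h4m and Hist1h2bq, of the same type. The row named Hist1h3d is annotated as Hist1h2ad, an H2A gene, and is counted under H3 here by its name. Of the 64 rows, 53 lie on chromosome 13, 8 on chromosome 3, 2 on chromosome 11 and 1 on chromosome 6.

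The normalized counts summed to between 14952367 and 17314953 per library, and a value of 16.2 normalized counts stands for 1 c.p.m. of the mean sum. Size factors from the median ratio lay between 0.982 and 1.024, so the libraries were on nearly the same scale. Cdkn1b, which encodes p27Kip1, had a limma log2 fold change of −0.32 ± 0.28 (standard error; adjusted p = 0.677), and whether transgene reads fall on it is not known. The fibroblast label held against its markers, as all 9 fibroblast markers were tested in the model and Col1a1, Col1a2 and Col3a1 were at 114898 normalized counts or more in every library. The 9 markers summed to 1531134 to 1679926 in EtOH and 684804 to 1127044 in TAM. Of the 9, 5 were lower in all 3 TAM libraries than in any EtOH library, against 6.84% of all genes of the table. That share includes 4829 genes at 0 in all libraries, which cannot differ. The sum follows the collagens, and Thy1 lay the other way, with 1036, 2165 and 571.2 normalized counts in EtOH and 2366, 4122 and 2246 in TAM (limma log2 fold change 1.36, standard error 0.49, adjusted p = 0.295). Keratinocyte markers summed to between 43 and 74 in all libraries. Most of that sum was Krt10, with 52.4, 41.0 and 57.6 normalized counts in EtOH and 47.6, 41.9 and 59.1 in TAM. Krt1 was at 0, Krt14 at 0.91 or less and Krt5 at 0.64 or less in EtOH and 2.96 to 13.4 in TAM. Macrophage markers summed to 176 to 461 in EtOH and 270 to 466 in TAM, with Emr1 at 0 in each library and Ptprc at 5.01 or less. This sum follows Cd68 at 352.3 in EtOH replicate 2. Of the 3 macrophage markers tested, Lyz2 and Csf1r were above EtOH in all TAM libraries, against 9.19% of the genes tested. So was Itgam, which was not tested, at 0.73 or less in EtOH and 0.82 to 3.11 in TAM. Lyz2 had 46.8, 35.3 and 62.9 normalized counts in EtOH and 103.1, 143.3 and 159.5 in TAM (limma log2 fold change 1.48, standard error 0.32, adjusted p = 0.141), and Csf1r 75.7, 73.4 and 74.3 in EtOH and 113.1, 226.2 and 90.6 in TAM. Endothelial markers summed to 86 to 241 in EtOH and 16 to 34 in TAM, and Kdr, a growth factor receptor, made up most of that difference (limma log2 fold change −3.71, standard error 0.54, adjusted p = 0.0608, and 0.0488 in the paired fit that takes replicate numbers as blocks). The part of these shifts in the histone values was not tested.

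A gene was tested in the limma model when at least 3 of the 6 libraries reached 16.2 normalized counts, which left 11877 genes and 15 of the 64 histone rows. Among those 15, Hist1h1e, Hist1h1d, Hist1h2ab and Hist1h2bg had no EtOH library at this value and passed only through TAM, so they had to differ between the groups. Hist1h4h, Hist1h2be, Hist1h2ac and Hist2h2be had 2 EtOH libraries at this value and also needed a TAM library to pass. All log2 differences below are TAM minus EtOH means of log2(normalized counts + 1), with the standard error from that model, and values are in the order of replicates 1, 2 and 3.

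Histone H4 is the most conserved core histone, and 2 of its genes on chromosome 13 had the largest H4 differences among the rows that passed. Hist1h4i (ENSMUSG00000060639, chr13:22132685-22133221, 1 exon), the member that led to the set, had 38.8, 55.3 and 43.2 normalized counts in EtOH and 273.9, 239.6 and 341.8 in TAM. Every TAM library lay above every EtOH library. The means were 45.8 ± 8.53 (SD, n = 3) and 285 ± 52 (SD, n = 3), a ratio of 6.23 and a log2 difference of 2.61 (standard error 0.25). Hist1h4h (chr13:23622919-23623388, 1 exon) had 16.1, 26.7 and 34.4 normalized counts in EtOH and 174.9, 147.5 and 239.0 in TAM. Again the groups did not overlap, with a ratio of means of 7.28 and a log2 difference of 2.85 (standard error 0.36). Hist2h4, on chromosome 3, behaved otherwise: it had 42.8, 41.9 and 88.7 normalized counts in EtOH and 126.4, 37.7 and 95.4 in TAM. Its groups overlapped, since TAM replicate 2 was the lowest of the 6 libraries, and the log2 difference was 0.50 (standard error 0.52). Per kilobase of exon, Hist1h4i averaged 85.2 normalized counts in EtOH and 531 in TAM, Hist1h4h 54.7 and 398, and Hist2h4 36 and 53.8.

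Among the 5 H2B rows that passed, Hist1h2bc had the highest values and Hist1h2be the largest difference. Hist1h2bc (chr13:23776068-23784357, 2 exons) had 394.0, 408.2 and 644.9 normalized counts in EtOH and 1212, 1069 and 1427 in TAM. The groups did not overlap, with a ratio of means of 2.56 and a log2 difference of 1.38 (standard error 0.24). Hist1h2be had 26.3, 15.2 and 28.2 normalized counts in EtOH and 160.8, 145.8 and 192.7 in TAM. All TAM libraries were above all EtOH libraries, with a ratio of means of 7.16 and a log2 difference of 2.83 (standard error 0.33). Its locus in the table differs from that of the annotation, the only such case among the 64 rows. Hist1h2bg had 4.42, 9.50 and 13.2 normalized counts in EtOH and 22.4, 28.5 and 36.6 in TAM, a log2 difference of 1.67 (standard error 0.53), again without overlap. Hist2h2bb and Hist2h2be, on chromosome 3, are both without the stem-loop pattern in the window searched. Hist2h2bb had 20.1, 19.0 and 51.4 normalized counts in EtOH and 56.7, 46.1 and 57.0 in TAM, and Hist2h2be had 22.6, 6.62 and 22.1 in EtOH and 41.3, 17.6 and 39.3 in TAM. Both overlapped between groups, with log2 differences of 0.94 (standard error 0.45, and 0.38 in the paired fit) and 0.98 (standard error 0.61, and 0.36 in the paired fit). Within pairs of the same replicate number TAM was above EtOH each time, by 1.45, 1.23 and 0.15 on the log2 scale for Hist2h2bb and by 0.84, 1.29 and 0.80 for Hist2h2be. Per kilobase of exon, Hist1h2bc averaged 655 normalized counts in EtOH and 1680 in TAM, the highest levels in TAM among the rows that passed, and Hist1h2be 9.53 and 68.3.

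The linker histone H1 closes the nucleosome and compacts chromatin, and 3 of its 6 genes passed. Hist1h1c (chr13:23830676-23832235, 1 exon) had the highest values of all 64 rows, with 862.5, 1690 and 1542 normalized counts in EtOH and 1733, 2174 and 1989 in TAM. The groups did not overlap, but by a small margin, and the ratio of means was 1.44 with a log2 difference of 0.58 (standard error 0.28). Hist1h1d had 6.77, 0.90 and 11.4 normalized counts in EtOH and 44.5, 77.1 and 43.8 in TAM, a log2 difference of 3.25 (standard error 0.75). Hist1h1e had 3.64, 9.50 and 12.3 normalized counts in EtOH and 39.4, 37.7 and 47.1 in TAM, a log2 difference of 2.28 (standard error 0.52). In both genes the TAM libraries were all above the EtOH libraries, whose values rest on few reads. Per kilobase of exon, Hist1h1c averaged 875 normalized counts in EtOH and 1260 in TAM.

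**Figure D1:**
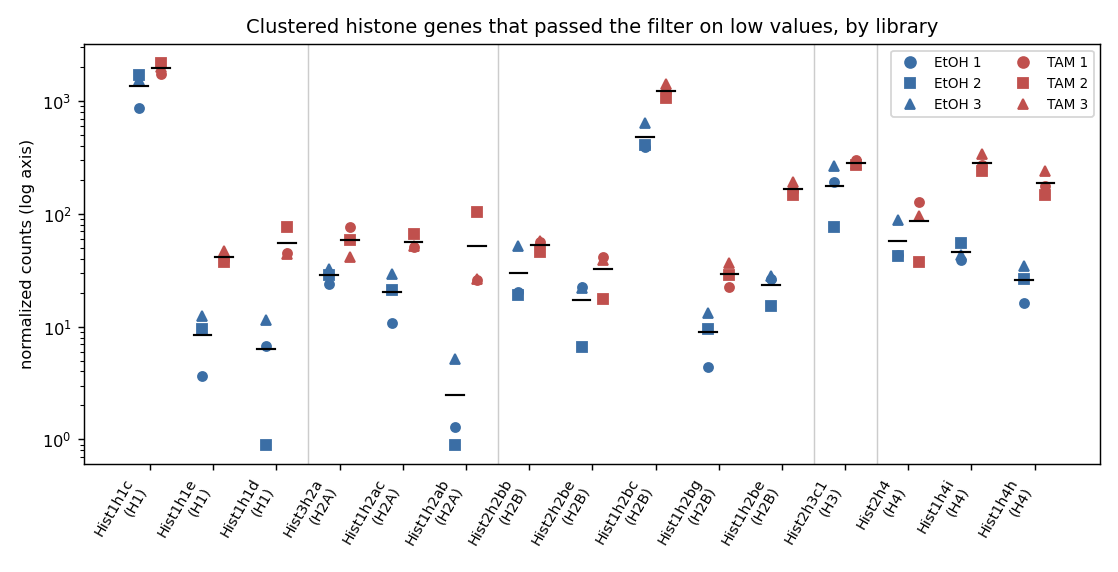
Normalized counts (log axis) of the 15 clustered histone genes that passed the filter on low values, in each of the 3 EtOH (blue) and 3 TAM (red) libraries, with the marker shape giving the replicate number and the bar the mean of a group. Hist1h4i, Hist1h4h, Hist1h2be and Hist1h2bc show separate groups with close TAM values, Hist1h2ab has 1 high TAM library, and Hist2h4, Hist2h2bb and Hist2h2be overlap between the groups.

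Of the 16 H2A rows, 3 passed. Hist3h2a, on chromosome 11, had 24.1, 28.6 and 32.7 normalized counts in EtOH and 75.8, 58.6 and 41.8 in TAM, a log2 difference of 0.99 (standard error 0.35). Hist1h2ac had 10.7, 20.9 and 29.2 normalized counts in EtOH and 50.9, 66.2 and 51.5 in TAM, a log2 difference of 1.52 (standard error 0.44). In both genes every TAM library lay above every EtOH library. Hist1h2ab had 1.30, 0.90 and 5.19 normalized counts in EtOH and 25.7, 103.9 and 26.4 in TAM, a log2 difference of 3.82 (standard error 0.78). Its groups did not overlap either, and TAM replicate 2 was far above the other TAM libraries. Histone H3, whose tail carries many of the regulatory marks of chromatin, had 1 row that passed among its 11. Hist2h3c1 (chr3:96049477-96052431, 1 exon) had 191.5, 77.2 and 265.8 normalized counts in EtOH and 301.6, 272.3 and 278.8 in TAM. The groups were apart by a small margin, and the log2 difference was 0.84 (standard error 0.43). Per kilobase of exon, Hist3h2a averaged 14.3 normalized counts in EtOH and 29.5 in TAM, and Hist2h3c1 averaged 60.3 and 96.2.

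In the limma model over all 11877 genes, Hist1h4i, Hist1h4h and Hist1h2be were among the genes higher in TAM at a Benjamini-Hochberg adjusted p under 0.05, a threshold that 0.168% of the genes tested passed in that direction. In the paired fit these 3 and Hist1h2bc passed, against 1.00% of the genes tested. Because the set was chosen on this contrast, nothing is read from these counts. None of the 3 kept its call when any 1 of the 6 libraries was left out, while the log2 difference of Hist1h4i stayed between 2.47 and 2.75. Without the filter on low values, Hist1h4i alone of the members was called, and with quantile normalization Hist1h2be lost its call. In either direction, 0.244% of the genes tested were called, 1.62% in the paired fit, and 13.4% had an unadjusted p under 0.05. The counts for the gene lists below are set against these shares.

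Over all 64 rows, 56 had a log2 difference above 0, 3 below 0 and 5 were listed at 0 in every library. The median was 1.03, and it was −0.03 over the genes tested and 0.00 over all genes of the table. All 3 TAM libraries lay above all 3 EtOH libraries in 29 rows, and the reverse was seen in 0. Over all genes of the table these shares were 7.42% and 6.84%, and 9.19% of the genes tested were higher in all TAM libraries. Leaving out Hist1h4i, 28 of the other 63 rows were higher in all TAM libraries. The rows were chosen with these values known, and the comparison with all genes is a description.

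By type, the median log2 difference was 1.92 over the 6 H1 rows, 0.52 over the 16 H2A rows, 0.96 over the 18 H2B rows, 1.12 over the 11 H3 rows and 1.83 over the 13 H4 rows. These medians and their order depend on the value added before the log. With 0.1 in place of 1, H3 was highest at 2.92, H4 at 2.64 and H1 at 2.63, and with 10 they were 0.27, 0.45 and 0.68. TAM lay wholly above EtOH in 4 H1 (66.7%), 6 H2A (37.5%), 7 H2B (38.9%), 5 H3 (45.5%) and 7 H4 rows (53.8%). Over all genes of the table this share was 7.42%. Differences were above 0 in all rows of H1 and of H3, in 12 rows of H2A, in 15 of H2B and in 12 of H4, where the remaining row was at 0. The 3 rows below 0 were Hist1h2ak at −0.58, Hist3h2ba at −0.31 and Hist1h2bm at −0.05. Hist1h2ak had 1.42, 12.5 and 1.70 normalized counts in EtOH and 0, 10.9 and 1.25 in TAM, so replicate 2 was high in both groups, and the other pair did not exceed 0.96 normalized counts in any library.

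**Figure D2:**
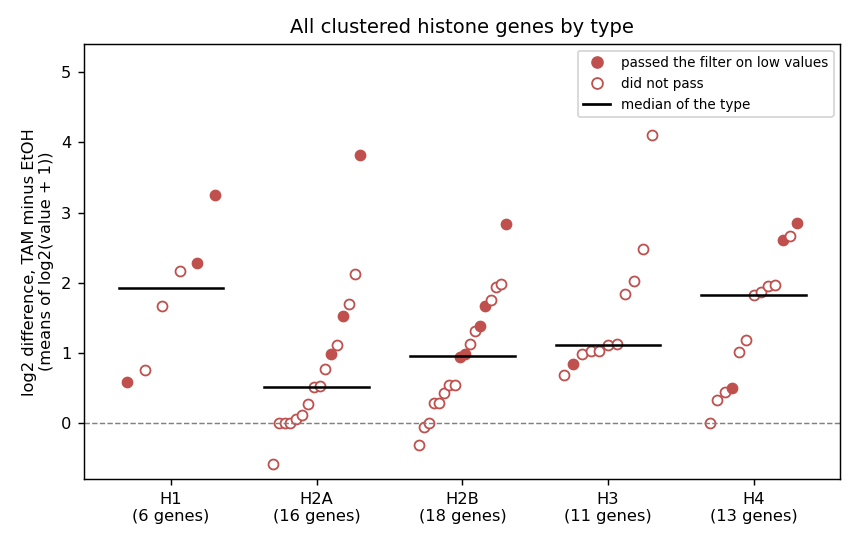
Log2 difference, TAM minus EtOH means of log2(normalized counts + 1), of each of the 64 clustered histone rows by histone type, with filled points for the 15 rows that passed the filter on low values and bars for the median of a type. Medians run from 0.52 for H2A to 1.92 for H1, an order that changes with the value added before the log, and 3 rows lie below 0.

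The 49 rows that did not pass held little signal. They stayed at 77.1 normalized counts or less, and 36 of the 64 rows stayed under 10 in every library, where a few reads decide a value. In 17 of the 49 the TAM libraries were all above the EtOH libraries. Over all genes of the table, which include those that passed, this share was 7.42%. Of the 36 rows under 10, 6 were among these 17. Hist1h3b, an H3 gene, reached the highest value among the 49, with 1.30, 0 and 1.64 normalized counts in EtOH and 12.6, 77.1 and 27.9 in TAM. Its log2 difference of 4.10 was the largest of the 64 rows and rests on EtOH values close to the smallest above 0 in these libraries (0.5 to 0.89). Hist1h4a had 5.28, 4.73 and 5.22 normalized counts in EtOH and 15.04, 28.5 and 27.5 in TAM, and Hist1h4d had 2.09, 7.6 and 6.1 in EtOH and 18.9, 14.2 and 27.3 in TAM. Both H4 genes had separate groups. Hist1h1a, Hist1h1b, Hist1h3b, Hist1h4a and Hist1h4d were picked for mention after their values were seen.

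Members differed in how TAM replicate 2 stood to the other TAM libraries. Among the 28 rows that reached 10 normalized counts in some library, TAM replicate 2 was at least 2-fold above the mean of TAM replicates 1 and 3 in 7 rows, at least 2-fold below it in 2 rows and within 2-fold in 19 rows, all on the scale of value + 1. The 7 were Hist1h1a, Hist1h1b, Hist1h2ab, Hist1h2ae, Hist1h2ak, Hist1h3b and Hist1h3c, and the 2 were Hist2h2be and Hist2h4. Hist1h1a had 3.04, 23.5 and 2.94 normalized counts in TAM and 1.5, 3.84 and 0 in EtOH. Hist1h1b had 6.09, 16.7 and 5.11 normalized counts in TAM and 0.62, 1.88 and 0.80 in EtOH. Hist1h4i, Hist1h4h, Hist1h2be and Hist1h2bc were not in either group, and TAM replicate 2 was the lowest of the TAM libraries for each of the 4. Without TAM replicate 2 the median log2 difference of H1 was 1.25 in place of 1.92.

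Summed over the 64 rows, clustered histone genes made up 102, 143 and 179 p.p.m. of the library sum in EtOH and 293, 299 and 345 in TAM. All TAM libraries were above all EtOH libraries, with means of 141 ± 38.5 (SD, n = 3) and 312 ± 28.8 (SD, n = 3) p.p.m. and a ratio of 2.21. Hist1h1c gave 57.8% of the summed signal in EtOH and 40.6% in TAM, and Hist1h2bc 20.4% and 25.5%. Without these 2 genes the sums were 27.4, 21.8 and 43.8 p.p.m. in EtOH and 102, 99.3 and 117 in TAM, a ratio of 3.42. By type, the ratio of mean sums in normalized counts was 4.31 for H4, 2.88 for H2A, 2.72 for H2B, 1.94 for H3 and 1.51 for H1. The H1 sum is mostly Hist1h1c. The H3 sum is mostly Hist2h3c1, with means of 178 of 188.5 normalized counts in EtOH and 284 of 365.5 in TAM. The order of the types by this ratio differs from that by median because a sum follows its highest members. The 49 rows that did not pass summed to 3.07, 3.73 and 4.48 p.p.m. in EtOH and 11.1, 20.7 and 17.2 in TAM.

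Genes of DNA replication give a measure of S phase in the same libraries. A hand-compiled list of 36 such genes (the Mcm helicase, Pcna, polymerases, ribonucleotide reductase, cyclins E and A and others) summed to 421, 756 and 572 p.p.m. in EtOH and 425, 788 and 477 in TAM. The groups overlapped, with a ratio of 0.967, and replicate 2 was the highest library of both groups. The part of S phase in the histone values was not tested. Within EtOH, replicate 2 had the highest value in 28 of the 36 S-phase genes, and within TAM in 33. No gene of the list was called by limma without or with the block, against 0.244% and 1.62% of the genes tested. At an unadjusted p under 0.05 there were 0 higher and 1 lower, Mcm7 (log2 fold change −0.64, standard error 0.23, adjusted p = 0.303). Of the 36 genes, 9 were above 0 and 27 below, where 46.2% of all genes tested were above 0. The median was −0.33, beside −0.03 over all genes tested. It stayed below 0 with each library left out, at −0.58 to −0.01. Ccne1, encoding cyclin E1, had the largest positive value, with 70.9, 169.8 and 85.8 normalized counts in EtOH and 106.9, 431.5 and 151.1 in TAM (log2 fold change 0.91, standard error 0.56, adjusted p = 0.550). Mcm5, a helicase subunit, had the largest negative one at −0.90 (standard error 1.06, adjusted p = 0.759). It had 44.2, 280.4 and 95.5 normalized counts in EtOH and 22.7, 284.9 and 26.9 in TAM, which shows the weight of replicate 2.

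**Figure D3:**
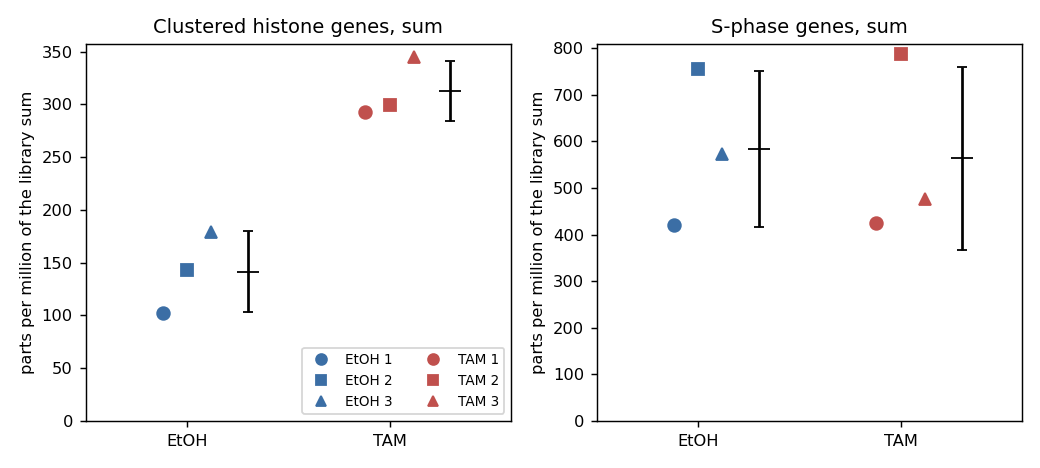
Summed signal of the 64 clustered histone rows (left) and of 36 S-phase genes (right), in p.p.m. of the library sum, for each of the 3 EtOH and 3 TAM libraries, with the mean and SD beside the points. Histone sums lie at 102 to 179 in EtOH and 293 to 345 in TAM, and S-phase sums overlap, with replicate 2 highest in both groups.

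Factors that make or shape histone mRNA had a median close to that of all genes tested. Of a list of 21 genes for transcription, 3′ end processing, cap binding and decay of histone mRNA, 20 were tested, and limma called 0 without and with the block, against 0.244% and 1.62% of the genes tested, and 0 had an unadjusted p under 0.05, against 13.4%. The median log2 fold change was −0.08, with 9 genes above 0 and 11 below. It changed sign to 0.03 when libraries were scaled by their sums, which shifts the median of all genes by 0.11, and to 0.07 without TAM replicate 1. Slbp, the stem-loop binding protein, had 198.5, 314.8 and 271.9 normalized counts in EtOH and 194.1, 290.7 and 249.9 in TAM (log2 fold change −0.09, standard error 0.25, adjusted p = 0.913). These groups overlapped throughout. Npat, the S-phase coactivator of histone transcription, was at −0.17 (log2 fold change, standard error 0.17, adjusted p = 0.716) and Casp8ap2, a U7-linked processing factor, one of 0.04 (standard error 0.17, adjusted p = 0.949). Lsm10 and Lsm11, the Sm-like proteins of the U7 snRNP, had −0.07 (standard error 0.24, adjusted p = 0.934) and 0.14 (standard error 0.51, adjusted p = 0.934). Zfp473, a further U7-linked zinc-finger protein, did not pass the filter, with 4.48, 4.73 and 5.21 normalized counts in EtOH and 16.6, 4.18 and 21.3 in TAM. Ncbp2, of the nuclear cap-binding complex, had the largest positive value at 0.40 (standard error 0.34, adjusted p = 0.660), and Zcchc11, a uridyl transferase, the largest negative one at −0.68 (standard error 0.33, adjusted p = 0.442). With standard errors of this size, differences of about that size in single factors were not detectable.

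Most histone variants and chaperones had log2 fold changes below 0, where 46.2% of all genes tested were above 0. Variants are made throughout the cell cycle from genes outside the clusters, mostly with ordinary poly(A) tails. Of a list of 16 variant genes, 13 were in the table and 10 were tested. Limma called 0 without and with the block, against the same 0.244% and 1.62%, so these counts do not set the variants apart, and at an unadjusted p under 0.05 there was 1 higher and 0 lower. The median log2 fold change was −0.32, with 3 genes above 0 and 7 below. H2afj, an H2A variant, was that gene, with 570.1, 515.1 and 456.1 normalized counts in EtOH and 867.5, 829.5 and 708.7 in TAM (log2 fold change 0.64, standard error 0.17, adjusted p = 0.206). Its TAM libraries were all above its EtOH libraries. H3f3b, an H3.3 gene, lay wholly the other way, with 3697, 4848 and 3767 normalized counts in EtOH and 3067, 3526 and 3417 in TAM (log2 fold change −0.29, standard error 0.18, adjusted p = 0.554). H2afz, encoding H2A.Z, had the largest negative value at −0.57 (standard error 0.30, adjusted p = 0.471), and its groups overlapped. Of 21 histone chaperones and assembly factors, 20 were in the table and tested, 1 was above 0 and 19 below, with a median of −0.21. Limma called 0 of them without and with the block, and 0 had an unadjusted p under 0.05, beside the shares above. Supt16h, of the FACT complex, had the only positive value at 0.03 (standard error 0.18, adjusted p = 0.969) and Asf1b, a chaperone of H3 and H4, the largest negative one at −0.66 (standard error 0.92, adjusted p = 0.805).

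**Figure D4:**
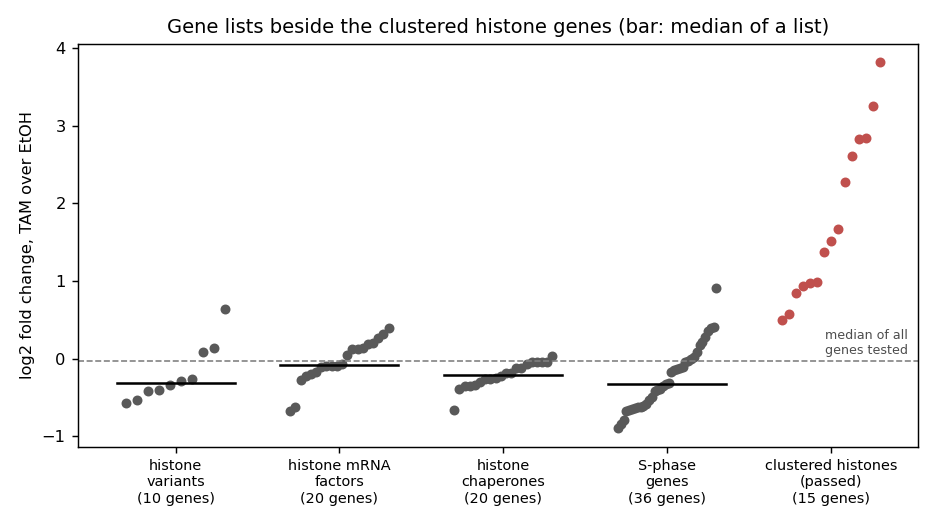
Log2 fold change, TAM over EtOH, of each tested gene of the variant, histone mRNA factor, chaperone and S-phase lists and of the 15 clustered histone rows that passed, with bars for list medians and a dashed line for the median of all genes tested. List medians lie at −0.32, −0.08, −0.21 and −0.33, and the 15 histone rows at 0.50 to 3.82. Of these rows, Hist1h1e, Hist1h1d, Hist1h2ab (the highest) and Hist1h2bg passed the filter only through TAM, so they had to differ. The histone set was chosen on this contrast, and the comparison with the lists is a description.

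Promoters of the clustered genes shared some short motifs by type. RefSeq promoters (GRCm38.p6) were matched to 59 of the 64 rows by identifier. Both rows of Hist1h2ap, Hist1h2br and Hist1h4n share 1 promoter each, which leaves 56, and the 250 bases before the start were searched on both strands. The octamer ATTTGCAT, a site known for octamer-binding factors in H2B genes, lay in 7 of 15 H2A and 6 of 15 H2B promoters and in 0 of the H1, H3 and H4 promoters, against 1.61% of 27025 promoters. Windows of neighbouring H2A and H2B genes can overlap, so 1 site can be counted under both types. For the octamer this holds for Hist1h2aa with Hist1h2ba, Hist1h2ae with Hist1h2bg and Hist1h2ah with Hist1h2bk. The octamer counts are therefore not of separate sites. CCAAT was found in 47 of the 56 (83.9%, and 34.5% of all promoters), with 3 of 11 for H4. TATAAA was found in 28 of the 56, against 13% of all promoters. Occurrences of different motifs can share bases at their edges and were counted for each. Among the rows that passed, Hist1h2bg, Hist2h2bb, Hist1h2ab, Hist1h2ac and Hist3h2a held the octamer, and the promoters of Hist1h4i, Hist1h4h and Hist1h2be did not, in this window. For Hist1h2be the window lay before the annotated start of its 2-exon model (mm9 chr13:23675611-23712993, minus strand), far from its stem-loop. The bases next to its coding sequence were not searched. Hist1h2bc, Hist2h2be and Hist2h4 had no promoter matched. A match is a description of these letters. The promoter of Hist1h2bg is shown as one that holds all 3 motifs, at chr13:23571150-23571399 of GRCm38.p6 on the plus strand, with the octamer in capitals.
Hist1h2bg: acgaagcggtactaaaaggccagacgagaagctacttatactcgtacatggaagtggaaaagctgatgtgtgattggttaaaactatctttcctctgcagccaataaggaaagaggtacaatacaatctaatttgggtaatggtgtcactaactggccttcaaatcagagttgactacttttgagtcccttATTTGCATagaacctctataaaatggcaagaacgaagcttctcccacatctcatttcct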

How the data were processed

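The data are poly(A) RNA-seq of 6 MSF samples. The authors used TopHat to align reads to mm9, HTSeq to count them per gene and edgeR to compare the groups. The signal they deposited is normalized counts for each gene in each library. Their scaling is not stated, and most are not whole numbers, so no count model was run here. How strand was handled was not given in the sources used here. Depth is known only as the sums of normalized counts, so no counting intervals were computed.

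Samples were grouped by their titles. The model was limma 3.58.1 in R 4.3.3 on log2(value + 1) with trended prior variance over genes at 1 c.p.m. or more in at least 3 of 6 libraries, with Benjamini-Hochberg adjustment, and 0.05 as the threshold. It called 100% of 200 changed genes among 11877 in simulated data. The simulation gave every gene the same spread and each changed gene the same size of change, without replicate effects. It therefore does not give the power in these data. Replicate numbers in the titles were checked for pairing. Deviations from group means correlated at 0.24, 0.29 and 0.42 for same-numbered libraries and at −0.31 to 0.04 for others. Deviations sum to 0 within a group, so these correlations depend on each other and do not settle the pairing. The numbers may pair the samples, so results were also fitted with them as a block, while the main model stayed unpaired. Exons, stop codons, stem-loops, AATAAA and 50-base stretches were read from the mm9 genome and GENCODE annotation, which held all 64 members, 63 at the same locus. Summaries were made in Python 3.11.15 with pandas 2.3.3, and plots with matplotlib 3.10.9.

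The members and the gene lists were chosen with earlier results of these data known. By rule, every member that passed the filter is named, with Hist1h4i first, and of each list the called genes, or otherwise the largest rise and fall, plus Slbp, Npat, Casp8ap2, Zfp473, Lsm10 and Lsm11. Alternatives were scaling by library size, median ratio or quantiles, other filters, pseudocounts of 0.1 and 10, the replicate block and leaving out each library in turn.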

Additional observations from a re-analysis of the deposited data

How the results depend on the processing

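Over all genes, the unpaired model called 20 as higher in TAM and 9 as lower, and the model with the replicate block 119 and 73. The higher count was 13 with quantile normalization and 45 with no filter on low values, the lower count 3 with no filter and 4 with at least 10 in every library, and with 1 library left out they ranged over 0 to 7 and 0 to 10. Of the members, 3 were called, 2 with quantile normalization, 1 with no filter, and 0 with any library left out. With at least 10 in every library, 10 members remained to be counted, each with a difference above 0, and otherwise 52 to 57 rows were above 0. The type medians depend on the pseudocount, because most members are low. With 0.1 they were 2.63, 0.92, 1.41, 2.92 and 2.64 for H1, H2A, H2B, H3 and H4, and with 10 they were 0.68, 0.10, 0.28, 0.27 and 0.45. With at least 10 in every library they were 0.58, 1.26, 1.38 and 2.61 for H1, H2A, H2B and H4, and quantile normalization gave 0.76 for H2B and 1.56 for H4. With 1 library left out, medians ranged over 1.25 to 2.32 for H1, 0.33 to 0.74 for H2A, 0.79 to 1.00 for H2B, 0.90 to 1.57 for H3 and 1.39 to 1.77 for H4. The summed histone ratio of 2.21 stayed between 1.94 and 2.55. The median of the histone mRNA factors reversed to 0.03 with scaling by library size and to 0.07 without TAM replicate 1, and with 1 library left out it ranged over −0.09 to 0.07. The causes of these changes were not tested, beyond the smaller number of libraries or genes in an alternative. The stem-loop was found in 58 members under both settings of its pairing, and in 97 or 67 of all genes. Besides Hist1h2bc and Kdr, the block changed no call of a gene described. With 3 libraries a group and unstated scaling, low values rest on few reads.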

Other observations

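Besides the 64 members, 3 rows of the table carry no symbol but are clustered histone genes in the mm9 annotation by their identifiers, and they were picked after their values were seen. The row annotated as Hist1h3d (chr13:23667632-23668880), an H3 gene with the stem-loop, had 8.32, 3.75 and 10.5 normalized counts in EtOH and 49.5, 54.5 and 54.6 in TAM, with no overlap between groups. The row annotated as Hist1h2al had 1.45, 1.89 and 3.55 normalized counts in EtOH and 2.95, 0.82 and 7.65 in TAM, and Hist2h2aa1 was at 0 in all libraries. H2afx, a variant gene outside the clusters that also holds the stem-loop pattern, had 203.2, 235.6 and 184.1 normalized counts in EtOH and 176.2, 432.3 and 139.4 in TAM, where replicate 2 was the highest of both groups.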
